A study of Mus musculus with 6 samples.

Results

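The YAP and TAZ target genes described here are 10 genes, Cyr61, Ctgf, Ankrd1, Amotl2, Axl, Ajuba, Lats2, Dlc1, Asap1 and Wwc1, out of 49671 genes in the deposited expression table. They were taken by gene symbol, where Cyr61 and Ctgf are the older symbols of Ccn1 and Ccn2, and all 10 passed the filter on low values. RNA was sequenced from LKPR EPCAM+ cells, a mouse skin squamous cell carcinoma line that carries Lgr5CreER, KrasLSL-G12D, p53fl/fl and Rosa26-YFP+/+ in every group. The 3 groups, with 2 libraries each, were cells with a Ntn1 knock-down (Ntn1 KD), cells with a Unc5b knock-down (Unc5b KD) and an empty vector control. Ntn1 encodes netrin-1, a secreted ligand, and Unc5b encodes one of its receptors. The constructs were delivered by lentivirus in pLKO.1-puro, with TRC1 as the empty vector, and transduced cells were tested for puromycin resistance. Cells grew for 6 days before living YFP+ and EPCAM+ cells were sorted for RNA. All libraries share 1 line, the Cre acts where the Lgr5 gene is active, and the sort leaves EPCAM-low cells unmeasured. No source used here gives the number of hairpins or says that the libraries of a group are separate cultures, and the tests therefore rest on a spread between libraries that may be technical.

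YAP and TAZ are transcriptional coactivators that have no DNA-binding domain of their own and reach their targets through the TEAD transcription factors. The Hippo kinases LATS1 and LATS2 phosphorylate YAP and TAZ, which keeps them in the cytoplasm. Among the genes that YAP and TAZ switch on are secreted matrix proteins, a receptor tyrosine kinase and several regulators that feed back on the Hippo pathway itself. In epidermis YAP is known for its part in basal cell proliferation, wound repair and squamous carcinoma. RNA levels do not show how much of the YAP or TAZ protein is in the nucleus.

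The table holds scaled values that sum to about 20 M in each library, so each value below is a level per 20 M. The depth estimated from the spacing of low values was 6.54 to 10.2 M reads per library, at which 3 reads, taken as a floor, are worth a level of 5.90 to 9.17. Across genes, log2 levels correlated at 0.980 to 0.990 between libraries of 1 group and at 0.936 to 0.967 between groups. The targeted genes followed the labels. Ntn1 averaged 395 ± 50.9 in Ntn1 KD and 2077 ± 723 in the empty vector, and Unc5b averaged 385.5 ± 47.4 in Unc5b KD and 1550 ± 32.5 in the empty vector (SD, n = 2 each). Unc5b averaged 2346.5 ± 50.2 in Ntn1 KD, 1.51-fold higher than in the empty vector (limma adjusted p = 0.0193), a call lost without either Ntn1 KD library at 0.15 and 0.177. Ntn1 had levels of 1319 and 771 in Unc5b KD, both below the 1566 and 2588 of the empty vector (1.99-fold lower, limma adjusted p = 0.0638, called in 4 of 15 alternatives, at 0.0142 to 0.0476). Epcam, the marker used for the sort, averaged 9931.5 ± 276 in Ntn1 KD, 9153.5 ± 46 in Unc5b KD and 8684 ± 922 in the empty vector.

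Most marker genes of other cell types were low, Csf1r and Mitf apart, and some markers moved with the groups. The sum of 6 epithelial markers was 58291 to 61326 in Ntn1 KD, 46354 to 50869 in Unc5b KD and 46312 to 47068 in the empty vector. Krt5, a basal keratin gene, had levels of 1034 and 1027 in Ntn1 KD, 697 and 776 in Unc5b KD, and 287 and 320 in the empty vector. It was 3.4-fold higher than in the empty vector in Ntn1 KD (limma adjusted p = 0.000327) and 2.43-fold higher in Unc5b KD (0.00136). Krt18 was 1.38-fold higher in Ntn1 KD than in the empty vector (limma adjusted p = 0.0234), and Cdh1, the gene of E-cadherin, was 1.49-fold higher in Ntn1 KD than in Unc5b KD (0.0228). Against the empty vector Cdh1 was not called, with log2 fold changes of 0.19 in Ntn1 KD and -0.38 in Unc5b KD. The keratin genes Krt14 and Krt8 were not called in any comparison. The Krt18 call was lost without either Ntn1 KD library, at 0.186 and 0.17, and without empty vector library 1, at 0.0554, and the Cdh1 call without any 1 of the 4 knock-down libraries, at 0.0638 to 0.25.

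The endothelial sum was 178 to 223 in Ntn1 KD, 88 to 100 in Unc5b KD and 96 to 108 in the empty vector. Its difference was that of Cdh5, with levels of 86 and 113 in Ntn1 KD, 2 and 0 in Unc5b KD, and 0 and 0 in the empty vector (limma adjusted p = 0.000725 against the empty vector), while Pecam1 overlapped among the groups and Kdr, Tek, Emcn and Vwf were at or under 3 reads in every group. The fibroblast sum was 211 to 311 in Ntn1 KD, 139 to 237 in Unc5b KD and 136 to 137 in the empty vector. Only 2 of its 8 genes passed the filter on low values, and 0 of these were called, so the others were not tested. Lum, Dcn and Thy1 were at or under 3 reads in every group. The immune sum was 454 to 568 in Ntn1 KD, 1098 to 1658 in Unc5b KD and 1298 to 1540 in the empty vector. Csf1r made up most of it, with levels of 347 and 443 in Ntn1 KD, 1569 and 1003 in Unc5b KD, and 1213 and 1511 in the empty vector (limma adjusted p = 0.00193 in Ntn1 KD), and Ptprc and 5 others of the 8 genes were at or under 3 reads in every group. The melanocyte sum was 345 to 359 in Ntn1 KD, 313 to 325 in Unc5b KD and 1130 to 1537 in the empty vector. Mitf alone carried that difference, with levels of 311 and 284 in Ntn1 KD, 299 and 257 in Unc5b KD, and 1513 and 1100 in the empty vector (limma adjusted p = 0.000431 in Ntn1 KD and 0.000466 in Unc5b KD). Pmel levels were 48 and 58 in Ntn1 KD, 24 and 49 in Unc5b KD, and 22 and 30 in the empty vector, with no call, and Dct and Tyr were at or under 3 reads throughout. The part of these markers in the results was not tested. In bulk RNA, fewer cells that express a gene and less of its RNA per cell cannot be told apart.

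Promoter windows of 250 bases before to 50 bases after the annotated start came from a RefSeq (GRCm38.p6) promoter set. It held 7 of the 10 genes. Ctgf, Dlc1 and Asap1 had no entry in the set used here, which does not mean that RefSeq lacks them. They were searched on both strands for the core TEAD motif GGAATG, whose reverse complement is CATTCC. The motif was present in 6 of the 7 genes, Cyr61, Ankrd1, Amotl2, Axl, Ajuba and Lats2, and absent from the Wwc1 window. Of all 32851 windows in the same set, 14.7% held it. Neither the AP-1 motif TGANTCA, in 7.81% of all windows, nor the CArG box, in 1.63%, was found in any of the 7 genes, and a match is a description of letters, not of a bound site. The windows of 5 genes are printed, those of the called genes Cyr61, Ajuba and Axl, of Ankrd1 with its pair of motifs, and of Lats2 with its motif after the start. Each reads 5′ to 3′ on the strand of its gene, with the TEAD motif in capitals. Positions are those of the first printed base of a match, counted from 1 at the start base, with negative numbers before it. The Cyr61 window is chr3:145649936-145650235 on the minus strand, with the motif at position -103 from the start on the strand opposite the gene. The Ajuba window is chr14:54577612-54577911 on the minus strand, with motifs at -186 and -164, both opposite to the gene. The Axl window is chr7:25788684-25788983 on the minus strand, with a motif at -233 in the direction of the gene. The Ankrd1 window is chr19:36119795-36120094 on the minus strand, with motifs at -210 and -123 in the direction of the gene. The Lats2 window is chr14:57746074-57746373 on the minus strand, with a motif at position 5 after the start, and the window of a second Lats2 start held none.
Cyr61: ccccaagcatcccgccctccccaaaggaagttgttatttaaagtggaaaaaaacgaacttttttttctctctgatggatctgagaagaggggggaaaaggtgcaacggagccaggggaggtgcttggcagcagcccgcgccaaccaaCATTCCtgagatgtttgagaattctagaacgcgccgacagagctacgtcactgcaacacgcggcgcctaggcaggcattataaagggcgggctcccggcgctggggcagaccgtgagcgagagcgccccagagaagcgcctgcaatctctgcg
Ajuba: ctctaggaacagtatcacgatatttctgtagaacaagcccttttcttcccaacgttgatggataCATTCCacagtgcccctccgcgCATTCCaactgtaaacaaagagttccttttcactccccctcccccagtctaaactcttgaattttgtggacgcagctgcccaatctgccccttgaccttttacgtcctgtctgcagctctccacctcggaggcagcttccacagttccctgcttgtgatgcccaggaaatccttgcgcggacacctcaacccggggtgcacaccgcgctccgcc
Axl: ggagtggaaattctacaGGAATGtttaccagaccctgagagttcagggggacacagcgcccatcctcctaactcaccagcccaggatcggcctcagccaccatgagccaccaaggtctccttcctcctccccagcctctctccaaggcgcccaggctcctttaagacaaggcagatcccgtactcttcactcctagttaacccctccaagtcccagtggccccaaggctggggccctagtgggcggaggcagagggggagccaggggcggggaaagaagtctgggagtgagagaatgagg
Ankrd1: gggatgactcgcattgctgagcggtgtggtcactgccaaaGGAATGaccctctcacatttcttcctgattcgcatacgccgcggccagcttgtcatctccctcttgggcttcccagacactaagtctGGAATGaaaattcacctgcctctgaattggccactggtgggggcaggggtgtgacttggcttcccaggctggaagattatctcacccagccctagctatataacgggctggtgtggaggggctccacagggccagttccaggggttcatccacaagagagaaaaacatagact
Lats2: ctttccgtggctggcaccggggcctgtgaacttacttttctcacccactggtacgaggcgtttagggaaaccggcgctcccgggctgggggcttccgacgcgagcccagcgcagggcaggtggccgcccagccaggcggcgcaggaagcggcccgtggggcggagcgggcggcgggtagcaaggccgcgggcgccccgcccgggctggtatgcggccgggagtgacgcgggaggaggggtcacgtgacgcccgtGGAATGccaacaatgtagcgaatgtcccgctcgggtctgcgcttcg

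**Figure D1:**
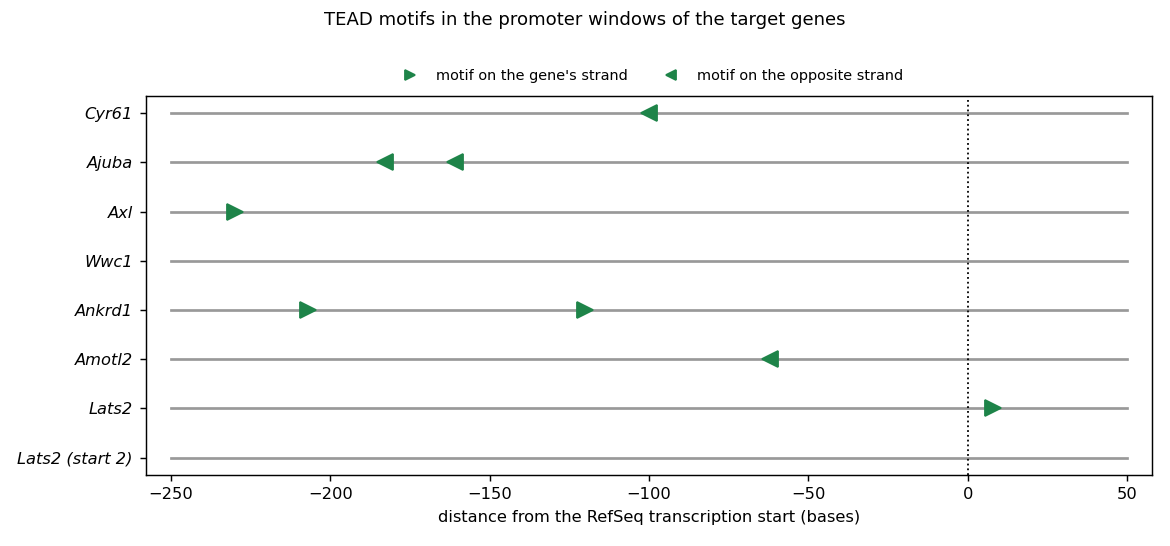
Positions of the TEAD motif in the promoter windows of the matched genes, as distance in bases from the annotated start (x axis), 1 row per window. Marks show the strand of each match; Cyr61 has 1 match at -103, Ajuba and Ankrd1 have 2 each, and Wwc1 and the second Lats2 start have none.

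Both knock-downs had lower levels of some of the 10 genes than the empty vector. Against the empty vector 4 of the 10 fell in Ntn1 KD, Cyr61, Ctgf, Ajuba and Asap1, and 0 rose, where 7.06% of all 15330 genes tested fell and 8.04% rose. In Unc5b KD 4 of the 10 fell, Axl, Cyr61, Dlc1 and Wwc1, and 0 rose, where 6.07% of all genes tested fell and 5.9% rose. Of these, Cyr61 was called in both, and both comparisons use the same empty vector libraries. The median log2 fold change of the 10 genes was -0.36 in Ntn1 KD, where that of all genes was -0.02, and -0.41 in Unc5b KD, where that of all genes was 0.04. Errors of levels are SD over 2 libraries and those of log2 fold changes are SE. Calls are from limma with Benjamini-Hochberg adjustment over all genes tested, at an adjusted p under 0.05.

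More of the 10 genes were fully separated by library than were called. Both Ntn1 KD libraries lay below both empty vector libraries for 7 of the 10 genes and above them for 0, where 30.2% of all genes lay below and 28% above, and overlapped them for Lats2, Dlc1 and Wwc1. Both Unc5b KD libraries lay below both empty vector libraries for 5 genes, Cyr61, Axl, Ajuba, Dlc1 and Wwc1, where 23.2% of all genes did so. Ankrd1 was the 1 gene with both Unc5b KD libraries above both empty vector libraries, as were 28.7% of all genes. An exact permutation test of 2 libraries against 2 cannot give a p below 0.333, so the calls rest on the spread that limma shares among genes.

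**Figure D2:**
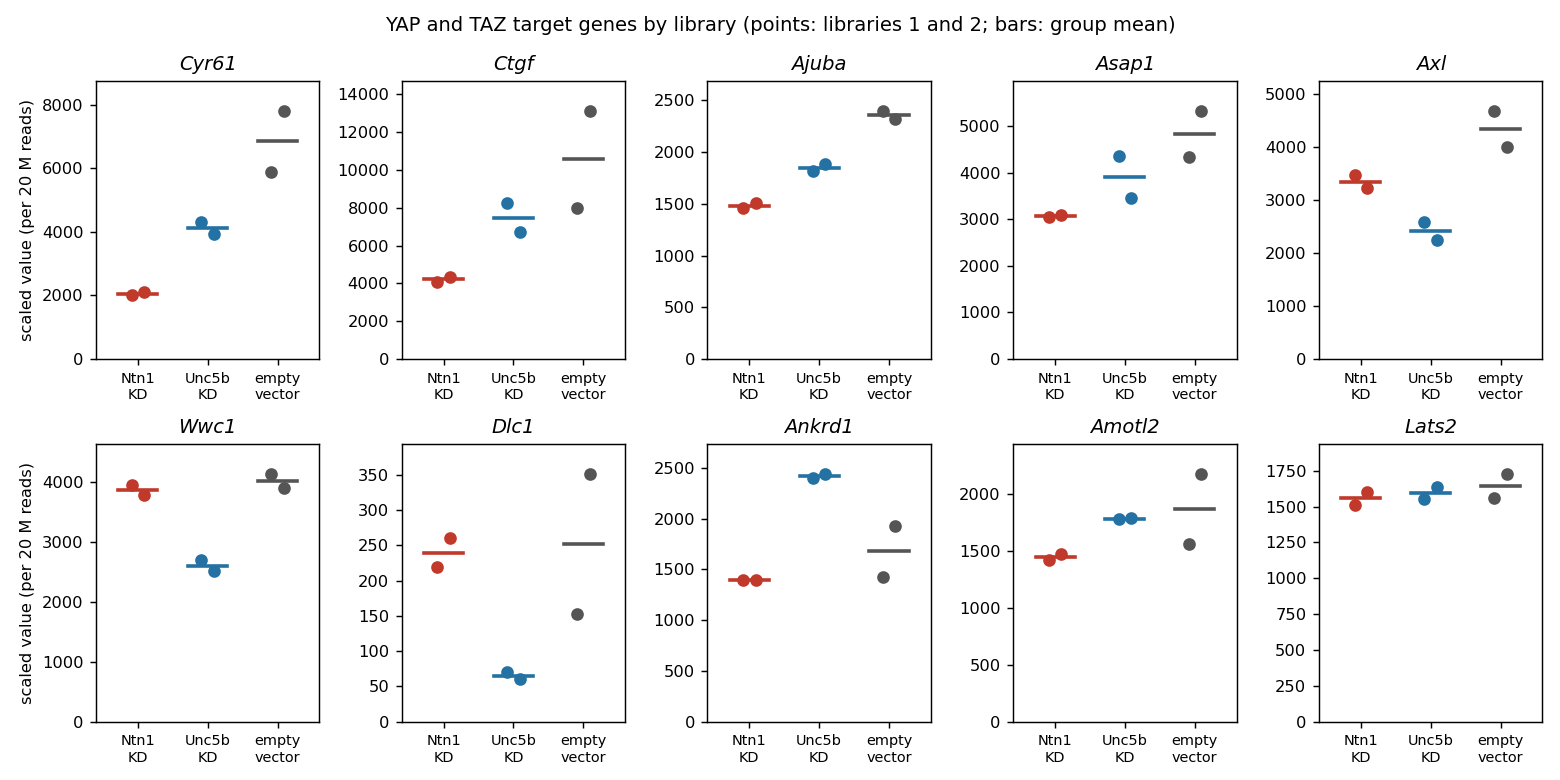
Level per 20 M of each of the 10 genes (y axis, scaled value, each panel starting at 0) in Ntn1 KD, Unc5b KD and the empty vector, 1 point per library with a bar at the group mean. Cyr61 is at 2012 and 2104 in Ntn1 KD, below every other library, and the Dlc1 levels of Unc5b KD, 71 and 60, lie below those of all other libraries.

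The secreted products came from Cyr61 and Ctgf, matricellular proteins of the CCN family that bind integrins and are widely read as YAP target genes. Cyr61 (ENSMUSG00000028195, chr3:145646976-145649981, minus strand) had levels of 2012 and 2104 in Ntn1 KD, 4324 and 3921 in Unc5b KD, and 5882 and 7804 in the empty vector. The 3 groups did not overlap, with Ntn1 KD lowest and Unc5b KD between it and the empty vector. Cyr61 averaged 2058 ± 65.1 in Ntn1 KD and 6843 ± 1359 in the empty vector, 3.33-fold lower (log2 fold change -1.72 with an SE of 0.15, limma adjusted p = 0.00035). In Unc5b KD it averaged 4122.5 ± 285, 1.66-fold lower than in the empty vector (-0.72 ± 0.15, limma adjusted p = 0.0163). The Ntn1 call held in all 15 alternative settings tried, with adjusted p-values of 7e-05 to 0.013. The call in Unc5b KD was lost in 7 of them, among them those without Unc5b KD library 1 (adjusted p = 0.0534), Unc5b KD library 2 (0.116), Ntn1 KD library 1 (0.0559) and Ntn1 KD library 2 (0.0571).

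Ctgf (ENSMUSG00000019997, chr10:24595442-24598683, plus strand) had levels of 4087 and 4342 in Ntn1 KD, 8239 and 6733 in Unc5b KD, and 7985 and 13129 in the empty vector. Both Ntn1 KD libraries were below all others, while Unc5b KD overlapped the empty vector. Its mean was 4214.5 ± 180 in Ntn1 KD and 10557 ± 3637 in the empty vector, 2.5-fold lower (-1.28 ± 0.21, limma adjusted p = 0.00597). In Unc5b KD it averaged 7486 ± 1065 (-0.46 ± 0.21, limma adjusted p = 0.213). Over the 15 alternatives that log2 fold change ran from -0.82, without empty vector library 1, to -0.10. The Ntn1 call was lost without Ntn1 KD library 1, at an adjusted p of 0.0765, and without library 2, at 0.065. Exons of the antisense gene Gm15270 cover 23.2% of the exon bases of Ctgf, and whether counting used strand is not given, so reads of the pair cannot be told apart. Gm15270, chosen after its values were seen, had levels of 1824 and 1926 in Ntn1 KD, 3330 and 2511 in Unc5b KD, and 3524 and 5296 in the empty vector.

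The receptor among the targets is Axl, a tyrosine kinase of the TAM family that binds GAS6. Axl (ENSMUSG00000002602, chr7:25757273-25788705, minus strand) had levels of 3460 and 3217 in Ntn1 KD, 2584 and 2247 in Unc5b KD, and 4679 and 3988 in the empty vector. Unc5b KD was lowest and Ntn1 KD lay between it and the empty vector, with no overlap among the 3 groups. Axl averaged 2415.5 ± 238 in Unc5b KD and 4333.5 ± 489 in the empty vector, 1.79-fold lower (-0.84 ± 0.13, limma adjusted p = 0.0049). This call held in all 15 alternatives, with adjusted p-values of 0.00319 to 0.0451. Axl averaged 3338.5 ± 172 in Ntn1 KD (-0.37 ± 0.13, limma adjusted p = 0.0892). That log2 fold change ran from -0.49, without empty vector library 2, to -0.26 over the 15 alternatives. Of the other TAM genes, Tyro3 was 1.58-fold lower in Ntn1 KD than in the empty vector (limma adjusted p = 0.031), a call that was lost when any library but empty vector library 2 was left out, with adjusted p up to 0.197. The ligand genes Gas6 and Pros1 and the receptor gene Mertk were under the filter on low values.

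Asap1 and Dlc1 encode GTPase-activating proteins that act on the actin cytoskeleton, and the Asap1 protein acts on Arf GTPases at focal adhesions. Asap1 (ENSMUSG00000022377, chr15:64086857-64382919, minus strand) had levels of 3051 and 3095 in Ntn1 KD, 4358 and 3451 in Unc5b KD, and 4331 and 5332 in the empty vector. Both Ntn1 KD libraries were below all others, and 1 Unc5b KD library reached the lower empty vector library. Asap1 averaged 3073 ± 31.1 in Ntn1 KD and 4831.5 ± 708 in the empty vector, 1.57-fold lower (-0.64 ± 0.15, limma adjusted p = 0.0226). That call was lost in 6 of 15 alternatives, among them those without Ntn1 KD library 1 (adjusted p = 0.169), without Ntn1 KD library 2 (0.159) and without empty vector library 2 (0.0659). In Unc5b KD the log2 fold change was -0.31 ± 0.15 (limma adjusted p = 0.226).

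Dlc1 (ENSMUSG00000031523, chr8:36567751-36953143, minus strand) was the lowest of the 10 genes, with levels of 219 and 260 in Ntn1 KD, 71 and 60 in Unc5b KD, and 153 and 352 in the empty vector. The Unc5b KD libraries were below all others, at an estimated 33 and 26 reads. The empty vector libraries lay on either side of both Ntn1 KD libraries. Dlc1 averaged 65.5 ± 7.78 in Unc5b KD and 252.5 ± 141 in the empty vector, 3.85-fold lower (-1.76 ± 0.36, limma adjusted p = 0.0169). The call was lost in 5 of 15 alternatives, with an adjusted p of 0.0634 without Unc5b KD library 1 and 0.114 without library 2. Its log2 fold change was -2.34 without empty vector library 1 and -1.17 without empty vector library 2. In Ntn1 KD it averaged 239.5 ± 29 (0.04 ± 0.36, limma adjusted p = 0.958).

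The products of 4 targets act on the Hippo pathway itself. Ajuba encodes a LIM protein that binds and holds back the LATS kinases, Lats2 encodes one of these kinases, Amotl2 encodes an angiomotin family protein that binds YAP, and Wwc1 encodes KIBRA, an upstream activator of the pathway. Ajuba (ENSMUSG00000022178, chr14:54567472-54577558, minus strand) had levels of 1460 and 1508 in Ntn1 KD, 1817 and 1881 in Unc5b KD, and 2400 and 2321 in the empty vector. The 3 groups did not overlap, in the same order as for Cyr61. Ajuba averaged 1484 ± 33.9 in Ntn1 KD and 2360.5 ± 55.9 in the empty vector, 1.59-fold lower (-0.67 ± 0.11, limma adjusted p = 0.00551). Its call was lost without Ntn1 KD library 1, at an adjusted p of 0.0869, and without library 2, at 0.0733. In Unc5b KD it averaged 1849 ± 45.3 (-0.35 ± 0.11, limma adjusted p = 0.0746).

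Wwc1 (ENSMUSG00000018849, chr11:35838400-35980527, minus strand) had levels of 3947 and 3792 in Ntn1 KD, 2706 and 2511 in Unc5b KD, and 4147 and 3908 in the empty vector. Unc5b KD was below all other libraries, and Ntn1 KD overlapped the empty vector. Wwc1 averaged 2608.5 ± 138 in Unc5b KD and 4027.5 ± 169 in the empty vector, 1.54-fold lower (-0.63 ± 0.11, limma adjusted p = 0.00773). The call was lost without Unc5b KD library 2, at an adjusted p of 0.0627, and without the variance trend, at 0.0511. In Ntn1 KD it averaged 3869.5 ± 110 (-0.06 ± 0.11, limma adjusted p = 0.76).

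Amotl2 and Lats2 did not pass the test in any comparison. Amotl2 (ENSMUSG00000032531, chr9:102716672-102733418, plus strand) had levels of 1427 and 1480 in Ntn1 KD, 1783 and 1790 in Unc5b KD, and 1564 and 2184 in the empty vector. The 2 empty vector libraries were far apart, and both Unc5b KD libraries lay between them. The log2 fold change was -0.35 ± 0.16 in Ntn1 KD (limma adjusted p = 0.191). It ran from -0.59, without empty vector library 1, to -0.11 over the 15 alternatives. Lats2 (ENSMUSG00000021959, chr14:57689662-57758388, minus strand) had levels of 1512 and 1605 in Ntn1 KD, 1556 and 1638 in Unc5b KD, and 1558 and 1731 in the empty vector. All 3 groups overlapped, and the log2 fold change was -0.08 ± 0.12 in Ntn1 KD and -0.04 ± 0.12 in Unc5b KD, each against the empty vector. Exons of the gene Gm49361 on the same strand cover 42.4% of the exon bases of Lats2, and how reads of that stretch were counted is not given.

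Ankrd1 encodes an ankyrin repeat protein that is found in the nucleus and in muscle sarcomeres, and its RNA is a common readout of YAP activity in cultured cells. Ankrd1 (ENSMUSG00000024803, chr19:36111961-36120099, minus strand) had levels of 1398 and 1400 in Ntn1 KD, 2400 and 2444 in Unc5b KD, and 1425 and 1930 in the empty vector. Unc5b KD was above all other libraries, a position that no other of the 10 genes had. Ankrd1 averaged 2422 ± 31.1 in Unc5b KD and 1677.5 ± 357 in the empty vector, a log2 fold change of 0.54 ± 0.15 that missed the threshold (limma adjusted p = 0.0533). Over the 15 alternatives that log2 fold change ran from 0.33 to 0.76, the latter without empty vector library 2. In Ntn1 KD Ankrd1 averaged 1399 ± 1.41 (-0.24 ± 0.15, limma adjusted p = 0.322). There the log2 fold change ran from -0.46, without empty vector library 1, to -0.026.

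**Figure D3:**
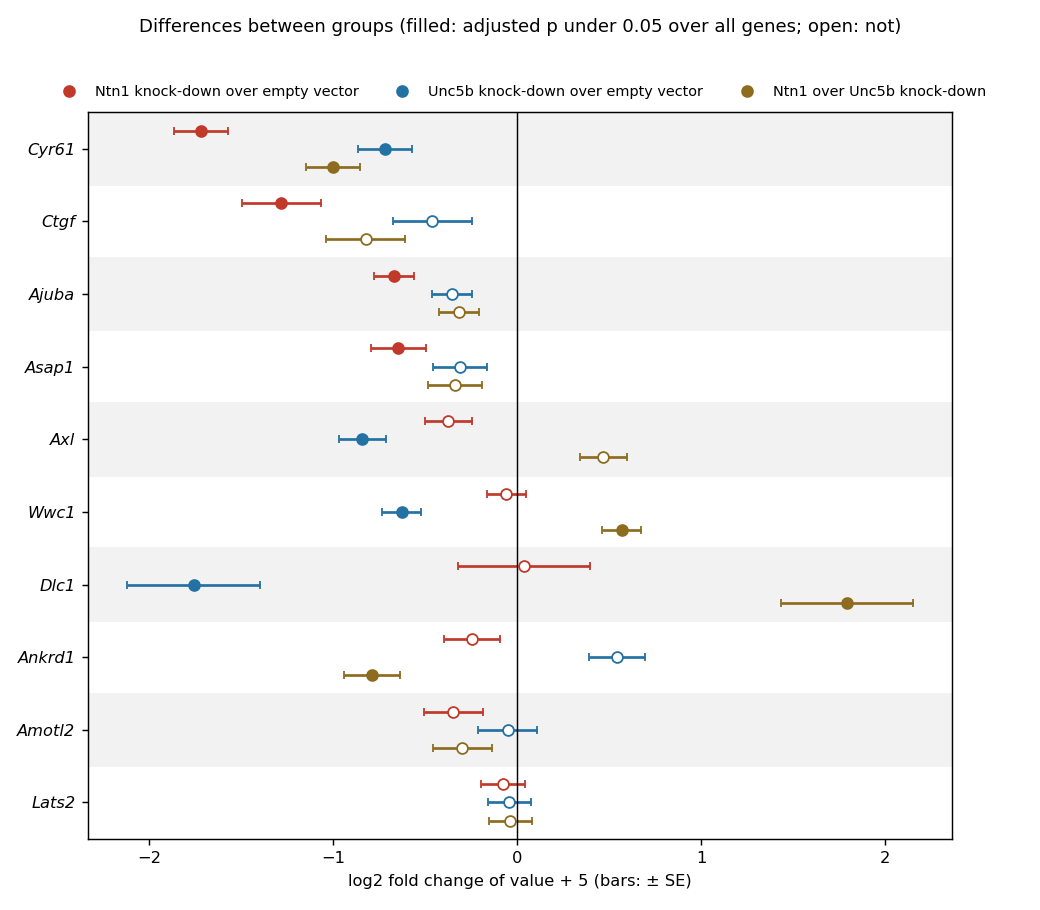
Log2 fold change of the 10 genes (x axis) in each comparison, with bars for 1 SE, filled points for called genes and open points for the others. Cyr61 lies lowest in Ntn1 KD against the empty vector at -1.72, Dlc1 lowest in Unc5b KD against the empty vector at -1.76, and Ankrd1 is the 1 gene with a positive value in that second comparison, 0.54.

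Setting the knock-down of the ligand gene against that of the receptor gene tests directly where the 10 genes differ between them. Against Unc5b KD, 2 of the 10 genes were higher in Ntn1 KD, Dlc1 and Wwc1, where 4.15% of all genes tested were, and 2 were lower, Cyr61 and Ankrd1, where 2.95% were. Dlc1 was 3.66-fold higher in Ntn1 KD (1.79 ± 0.36, limma adjusted p = 0.0231) and Wwc1 was 1.48-fold higher (0.57 ± 0.11, 0.0184). Cyr61 was 2.0-fold lower in Ntn1 KD (-1.0 ± 0.15, limma adjusted p = 0.00732) and Ankrd1 was 1.73-fold lower (-0.79 ± 0.15, 0.0201). The libraries of the 2 knock-downs did not overlap for 9 of the 10 genes, all but Lats2, with 6 lower in Ntn1 KD and 3 higher, where 31.3% and 24.4% of all genes were. The log2 difference was -0.82 ± 0.21 for Ctgf (limma adjusted p = 0.0573) and 0.47 ± 0.13 for Axl (0.0653), so neither passed the test in this comparison. Ctgf passed in 4 and Axl in 3 of the 15 alternatives, among them those without an empty vector library. Leaving out such a library changes only the spread used in this comparison, not the log2 difference. Over the 15 alternatives that difference was -0.97 to -0.68 for Ctgf and 0.37 to 0.57 for Axl. The calls of Dlc1, Wwc1, Cyr61 and Ankrd1 were mostly lost when a knock-down library was left out, which leaves 1 library in that group. Over the 15 alternatives the log2 difference was 1.6 to 1.91 for Dlc1 and 0.51 to 0.62 for Wwc1. It was -1.07 to -0.93 for Cyr61 and -0.80 to -0.75 for Ankrd1.

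The 10 genes were ordered by their level divided by exon length. Per kb of exon, Ctgf was highest at 1473 ± 63 in Ntn1 KD, 2617 ± 372 in Unc5b KD and 3690 ± 1271 in the empty vector, and Cyr61 was next at 1019 ± 32.2, 2042 ± 141 and 3389 ± 673 in the same groups. In the empty vector these levels of Ctgf and Cyr61 overlapped, and in both knock-downs they did not. Axl at 861 ± 97.1 and Wwc1 at 812 ± 34.1 per kb followed in the empty vector and overlapped, as did Ajuba at 647 ± 15.3, Asap1 at 646 ± 94.6 and Ankrd1 at 581 ± 124 per kb. Ankrd1 stood below Axl and Wwc1 in the empty vector and overlapped Ajuba and Asap1 there. At 839 ± 10.8 per kb it was above Axl, Wwc1, Ajuba and Asap1 in Unc5b KD. Amotl2, Lats2 and Dlc1 closed the order in every group, with Dlc1 at 16.3 per kb in Ntn1 KD, 4.46 in Unc5b KD and 17.2 in the empty vector.

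Of the genes of the coactivators and their DNA-binding partners, Yap1 and Tead3 fell in both knock-downs. Yap1 had levels of 1645 and 1538 in Ntn1 KD, 992 and 1047 in Unc5b KD, and 2095 and 2394 in the empty vector, with no overlap among the groups. It was 1.41-fold lower than in the empty vector in Ntn1 KD (-0.49 ± 0.12, limma adjusted p = 0.0314) and 2.2-fold lower in Unc5b KD (-1.13 ± 0.12, 0.00119), and the 2 knock-downs differed from each other (0.64 ± 0.12, 0.0203). The Yap1 call of Ntn1 KD was lost without either of its libraries, at adjusted p-values of 0.167 and 0.242, and without empty vector library 2, at 0.0971, and that of Unc5b KD held in all 15 alternatives. The difference between the 2 knock-downs was lost without any 1 of their 4 libraries, at adjusted p-values of 0.0874 to 0.241. Tead3, a DNA-binding partner, had levels of 397 and 450 in Ntn1 KD, 579 and 523 in Unc5b KD, and 869 and 992 in the empty vector. It was 2.2-fold lower than in the empty vector in Ntn1 KD (-1.13 ± 0.15, limma adjusted p = 0.00238) and 1.69-fold lower in Unc5b KD (-0.75 ± 0.15, 0.0167). The call in Unc5b KD was lost without either of its libraries, at 0.0543 and 0.116, and without empty vector library 2, at 0.0548. Wwtr1, which encodes TAZ, averaged 3793 ± 188 in Ntn1 KD, 2984.5 ± 371 in Unc5b KD and 2998.5 ± 457 in the empty vector and was not called. Tead1 was 1.35-fold higher in Ntn1 KD than in the empty vector (0.44 ± 0.10, limma adjusted p = 0.0198), a call lost without either Ntn1 KD library at 0.183 and 0.168. Tead2 and Tead4 were not called, with log2 fold changes of 0.33 and -0.17 in Ntn1 KD and of 0.17 and -0.59 in Unc5b KD (limma adjusted p = 0.209, 0.543, 0.544 and 0.0587 in the same order). Vgll4, which encodes a competitor of YAP for TEAD binding, was 1.97-fold lower in Unc5b KD (-0.97 ± 0.17, limma adjusted p = 0.00807), a call lost without its library 2 at 0.0628. Exons of Yap1 and Tead2 overlap those of a gene on the other strand over 1.25% and 0.272% of their bases. Of the 8 tested genes of this list, 1 rose and 2 fell in Ntn1 KD, where 8.04% of all genes rose and 7.06% fell. In Unc5b KD 0 rose and 3 fell, where 5.9% of all genes rose and 6.07% fell.

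A wider list of 22 conserved YAP and TAZ targets held 7 of the 10 genes and 15 others, of which 13 were tested. Among these 13, 2 rose and 4 fell in Ntn1 KD, where 8.04% of all genes rose and 7.06% fell, at a median log2 fold change of -0.24 (all genes -0.02). In Unc5b KD 0 of the 13 rose and 2 fell, where 5.9% of all genes rose and 6.07% fell, at a median of -0.29 (all genes 0.04). Foxf2, a forkhead transcription factor gene, had levels of 59 and 31 in Ntn1 KD, 19 and 5 in Unc5b KD, and 322 and 215 in the empty vector. It was 5.97-fold lower in Ntn1 KD (-2.48 on the log2 scale, limma adjusted p = 0.0111) and 22.4-fold lower in Unc5b KD (-4.11, 0.00155), at few reads in both and with 1 Unc5b KD library under the floor of 3 reads. Crim1, which encodes a membrane protein that binds BMPs, had levels of 1099 and 1193 in Ntn1 KD, 1500 and 957 in Unc5b KD, and 2407 and 3341 in the empty vector. It was 2.51-fold lower in Ntn1 KD (limma adjusted p = 0.00708) and 2.34-fold lower in Unc5b KD (0.0108). The Foxf2 call in Ntn1 KD was lost without either of its libraries, at 0.0502 and 0.114, and the log2 fold change in Unc5b KD was -4.75 without its library 1 and -3.48 without its library 2. The Crim1 call was lost without either Ntn1 KD library, at 0.0853 and 0.0695, and in the other knock-down without Unc5b KD library 2, at 0.064. In Ntn1 KD F3, the gene of tissue factor, was 1.99-fold lower (limma adjusted p = 0.0102) and Nuak2, a kinase gene, was 2.37-fold lower (0.0045). Gadd45a, a stress response gene, was 1.57-fold higher there (limma adjusted p = 0.0229) and Nt5e, the gene of the ectonucleotidase CD73, was 1.7-fold higher (0.00327), so the signature genes did not all move one way. F3 and Nuak2 are named to complete the count, after their values were seen, and their calls were lost without Ntn1 KD library 1, at 0.0633 for F3 and 0.0639 for Nuak2, and without Ntn1 KD library 2, at 0.118 for F3 and 0.0513 for Nuak2. Without Ntn1 KD library 1 the adjusted p was 0.176 for Gadd45a and 0.0593 for Nt5e, without Ntn1 KD library 2 it was 0.158 and 0.0618 for the same genes, and without empty vector library 1 it was 0.0574 for Gadd45a. Exons of Foxf2, Crim1 and Gadd45a overlap those of other genes. The TEAD motif was in the promoter window of 7 of the 15 matched genes of the whole list, where 14.7% of all windows held it. It was in 2 of the 10 that are not among the genes described first. The rest of the 7 were already counted with those genes.

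**Figure D4:**
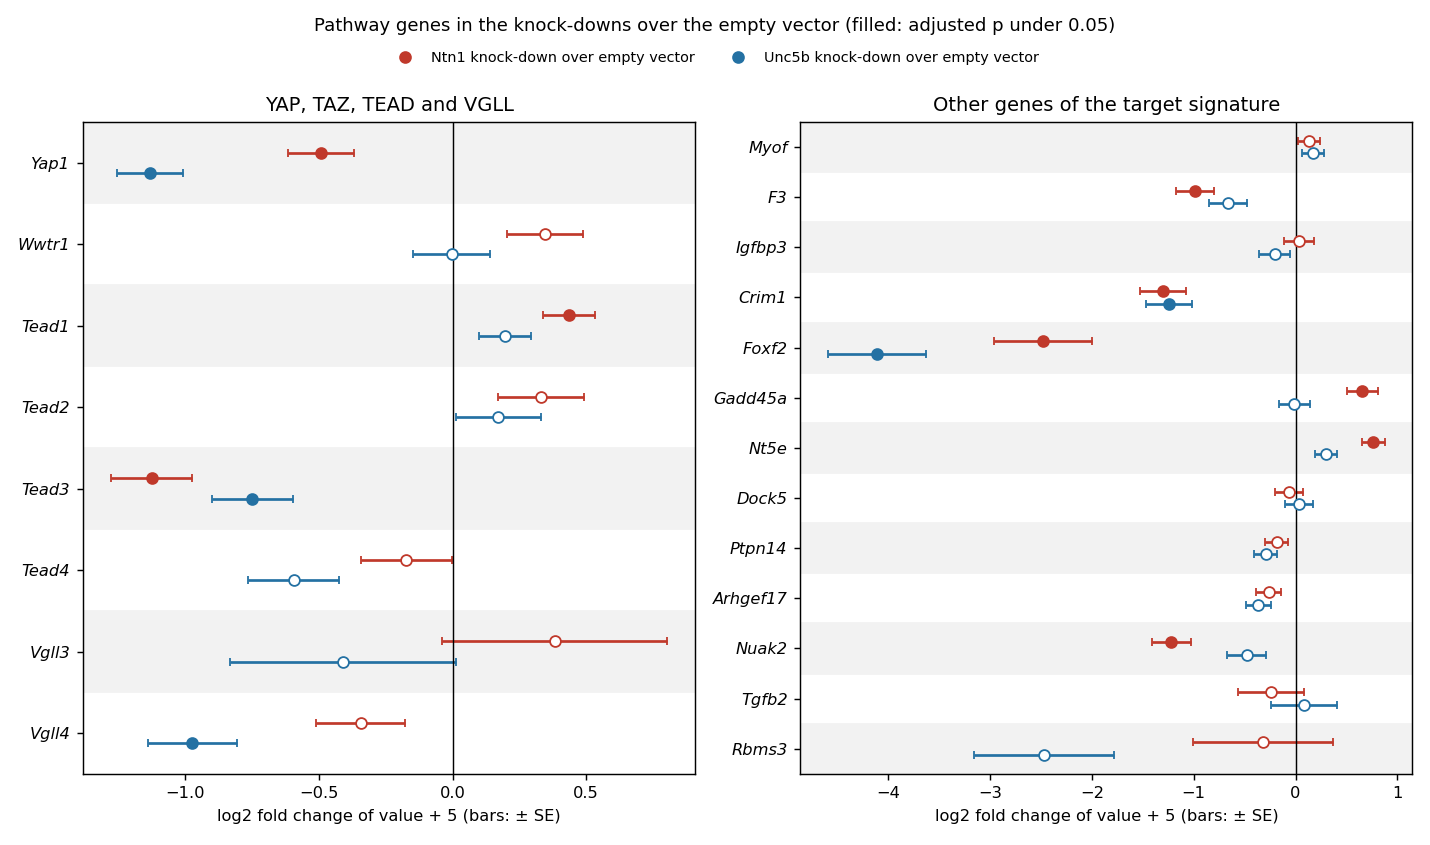
Log2 fold change (x axis) in Ntn1 KD and Unc5b KD, each against the empty vector, of the tested YAP, TAZ, TEAD and VGLL genes (left) and of the 13 other tested genes of the wider target list (right), with bars for 1 SE and filled points for called genes. Yap1, Tead3, Crim1 and Foxf2 lie below 0 and are called in both comparisons, and Gadd45a, Nt5e and Tead1 lie above 0 and are called in Ntn1 KD.

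Of 28 Hippo kinases and upstream regulators, 4 of them among the 10 target genes, 27 were tested. Against the empty vector 3 rose and 5 fell in Ntn1 KD, where 8.04% of all genes rose and 7.06% fell, at a median log2 fold change of -0.13 (all genes -0.02). In Unc5b KD 1 rose and 6 fell, where 5.9% of all genes rose and 6.07% fell, at a median of -0.19 (all genes 0.04). Lats1, the paralog of Lats2, had levels of 5538 and 4761 in Ntn1 KD, 3232 and 2828 in Unc5b KD, and 3292 and 3039 in the empty vector. It was 1.63-fold higher in Ntn1 KD than in the empty vector (0.70 on the log2 scale, limma adjusted p = 0.00806). Map4k4, a gene of a kinase upstream of the LATS kinases, was 1.32-fold higher there (limma adjusted p = 0.0428), a call lost without any library but empty vector library 1, with adjusted p up to 0.278. Wtip, an Ajuba family gene, was 2.0-fold higher there (limma adjusted p = 0.0298), while the other member of that family, Limd1, was 1.42-fold lower (0.0385). Nf2, the gene of the upstream activator merlin, had levels of 2023 and 2223 in Ntn1 KD, 3328 and 2666 in Unc5b KD, and 3233 and 4994 in the empty vector. It was 1.94-fold lower in Ntn1 KD (limma adjusted p = 0.0188). Wwc2, the paralog of Wwc1, was 1.93-fold lower than in the empty vector in Ntn1 KD (limma adjusted p = 0.0037) and 2.05-fold lower in Unc5b KD (0.00309). Fat4, a giant cadherin gene, had levels of 50 and 55 in Ntn1 KD, 34 and 37 in Unc5b KD, and 175 and 585 in the empty vector. It was 7.24-fold lower in Ntn1 KD (limma adjusted p = 0.0109) and 10.7-fold lower in Unc5b KD (0.00621). The log2 fold change of Fat4 was -3.36 in Ntn1 KD and -3.87 in Unc5b KD without empty vector library 1, and -1.65 in Ntn1 KD and -2.15 in Unc5b KD without empty vector library 2. In Unc5b KD Amot was 2.14-fold lower (limma adjusted p = 0.0266), Crb3 2.31-fold lower (0.0261) and Fat1 1.56-fold lower (0.01), while Mob1b, a LATS cofactor gene, was 1.41-fold higher (0.0202). Without Ntn1 KD library 1 the calls of Lats1, Wtip, Limd1, Nf2 and Fat4 in Ntn1 KD were lost, at adjusted p-values of 0.0967 to 0.173, and without Ntn1 KD library 2 those of the same genes and of Wwc2 were lost, at 0.0543 to 0.278. The calls of Wtip and Limd1 were also lost without empty vector library 1, at 0.0849 and 0.093, and that of Limd1 without either Unc5b KD library, at 0.0534 and 0.0542. Without Unc5b KD library 2 the calls of Amot, Crb3, Fat1 and Mob1b in Unc5b KD were lost, at 0.0779 to 0.166, and that of Mob1b without Unc5b KD library 1, at 0.0911. The calls of Amot and Crb3 were lost without empty vector library 2, at 0.0724 and 0.0939, and those of Amot, Crb3 and Mob1b without either Ntn1 KD library, at 0.066 to 0.0748. Exons of Wwc2, Fat4, Fat1 and Crb3 overlap those of other genes.

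Among the CCN family of Cyr61 and Ctgf, 4 of 6 genes were tested. Wisp2 had levels of 14 and 18 in Ntn1 KD, 66 and 51 in Unc5b KD, and 41 and 133 in the empty vector. It was 5.44-fold lower in Ntn1 KD than in the empty vector (log2 fold change -1.93, limma adjusted p = 0.0349), with a log2 fold change of -2.72 without empty vector library 1 and -1.14 without empty vector library 2. Wisp1 was 2.19-fold lower in Unc5b KD than in the empty vector (-1.06, limma adjusted p = 0.0378) and 2.41-fold higher in Ntn1 KD than in Unc5b KD (0.0312). The Wisp2 call and the Wisp1 call in Unc5b KD each survived 1 leave-out, that without empty vector library 1, with adjusted p up to 0.198 for Wisp2 and 0.163 for Wisp1 in the others. The Wisp1 difference between the knock-downs was lost without any 1 of their 4 libraries, at 0.106 to 0.248. With Cyr61 and Ctgf, 3 family members fell in Ntn1 KD, where 7.06% of all genes tested fell. With Cyr61, 2 fell in Unc5b KD, where 6.07% of all genes tested fell. Cyr61 and Ctgf were already counted among the target genes, so only Wisp2 and Wisp1 were added here. The Wisp2 levels in Ntn1 KD rest on few reads, as 3 reads are worth a level of 7.13 in its library 1 and 9.17 in its library 2.

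The genes whose profile over the 6 libraries came nearest to that of a target were picked by the smallest root mean square difference of centred log2 levels, as a description of these libraries. For Cyr61 they were Id1, an inhibitor of differentiation gene, at 0.0815 log2 units, Prdm11 at 0.117, and Tgm2, the gene of tissue transglutaminase, at 0.138. For Ctgf they were Ggact at 0.0779, Yjefn3 at 0.0922 and its antisense neighbour Gm15270 at 0.0954. For Ankrd1 they were Soat1, which encodes a cholesterol-esterifying enzyme, at 0.0606, the methionine synthase reductase gene Mtrr at 0.0809, and the ciliary gene Tctn2 at 0.085. None of the other 9 target genes was among the 3 nearest of any of these. Candidates had to vary over the libraries by a set minimum, so target genes with flat profiles, such as Lats2, could not be picked. Their absence is therefore no result.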

How the data were processed

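RNA levels were measured in 6 libraries, 2 in each of 3 groups assigned from the sample titles. The authors deposited 1 table of whole numbers whose library totals all lie near 20 M. It was therefore read as a scaled, rounded score and not as raw reads. Reads were processed with STAR, Picard and HTSeq on GRCm38 (mm10), per the submitters' processing notes. Tool versions, annotation, strand setting, duplicate handling and scaling are not given in the sources. Depth was estimated as the total divided by the step of the values up to 150, each within 0.5 of a multiple of that step. Floors cover counting error only, and no count model was fitted.

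Genes with a mean of at least 20 were analysed as log2(value + 5), a scale that understates the change of low genes. A linear model of 3 groups over all 6 libraries was fitted by limma 3.58.1 (R 4.3.3) with a variance trend, 3 residual and 5.33 prior degrees of freedom, 2-sided tests and Benjamini-Hochberg adjustment within each comparison. Errors of log2 fold changes are SE, other errors SD, and folds are ratios of group means as deposited. Alternatives were pseudocounts of 1 and 20, a minimum mean of 100, no filter, TMM-type and median-of-ratios scaling, no trend, a replicate block, only the 4 libraries compared, and each library left out. Gene positions and exon lengths come from GENCODE M21, which held 49326 of the 49671 identifiers, and promoters from RefSeq (GRCm38.p6).

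The target genes, the gene lists and the naming rule were chosen with earlier results of these data known. The rule names all 10 target genes, Ntn1, Unc5b, Epcam, Yap1, Wwtr1 and the TEAD genes, up to 4 called genes per list, direction and comparison by size of change, and the 3 nearest profiles of Cyr61, Ctgf and Ankrd1. For the profiles, candidates had an SD of at least 0.3 log2 units and of no less than a set part of the SD of the target gene itself.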

Additional observations from a re-analysis of the deposited data

Results flagged for a closer look

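The direct comparison of the 2 knock-downs tests whether their effects differ, and 4 of the 10 target genes passed it with limma (adjusted p under 0.05), Ntn1 knock-down over Unc5b knock-down. The log2 difference was -1.0 for Cyr61, -0.79 for Ankrd1, 1.79 for Dlc1 and 0.57 for Wwc1. Of all genes tested, 4.15% were called higher in the Ntn1 knock-down and 2.95% lower. In each of the 4 both libraries of 1 knock-down lay on the same side of both libraries of the other. Of all genes tested, 24.4% were separated in this way with the Ntn1 knock-down higher and 31.3% with it lower. The separation is no further test of the called genes. With no filter 0 of the target genes were called in this comparison, and without the variance trend 0 were.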

How the results depend on the processing

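With 2 libraries a group, most calls of the target genes were lost when 1 library was left out, which leaves 1 library in a group. Some of the 15 alternatives change the test and cannot move a log2 fold change. These include no filter, no trend, the replicate block and a library left out of the group not compared. Over the 15 alternatives the log2 fold change of Ajuba in the Ntn1 knock-down over the empty vector was -0.69 to -0.64. That of Dlc1 in the Unc5b knock-down over the empty vector moved more, from -2.34 to -1.17. The Cyr61 call in the Ntn1 knock-down and the Axl call in the Unc5b knock-down, each against the empty vector, held in all 15 alternatives. The cause of the changes was not tested. No called value turned its sign. Against 2314 genes called in the Ntn1 knock-down over the empty vector, 1289 were called with no filter, 1462 without the variance trend, 1465 with the replicate block and 509 to 2819 with 1 library left out. Of the target genes, 4 of which were called, 2 were called with no filter and 1 to 6 with 1 library left out. Against 1835 genes in the Unc5b knock-down over the empty vector, 791 were called with no filter, 1115 without the trend, 1102 with the block, 959 with only the 4 libraries compared and 669 to 2437 with 1 library left out. The count of target genes, 4 there too, was 2 with no filter, 1 without the trend, 2 with only the 4 libraries and 1 to 5 with 1 left out. Against 1088 genes between the knock-downs, 302 were called with no filter, 454 without the trend, 459 with the block, 1917 with only the 4 libraries and 33 to 1884 with 1 left out. Target genes called there numbered 4, against 0 with no filter, 0 without the trend, 2 with the block and 0 to 6 with 1 left out. The replicate numbers were not shown to pair the libraries: deviations of same-numbered libraries correlated at 0.16 between the Ntn1 knock-down and the empty vector, -0.45 between the Unc5b knock-down and the empty vector and -0.17 between the knock-downs.

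Some log2 fold changes that were not called turned their sign when a library was left out. In the Ntn1 knock-down over the empty vector the ranges were -0.50 to 0.12 for Amot, -0.55 to 0.62 for Dlc1, -0.37 to 0.052 for Tctn2, -0.41 to 0.066 for Tead4 and -0.21 to 0.56 for Wisp1. In the Unc5b knock-down over the empty vector they were -0.29 to 0.19 for Amotl2, -0.43 to 0.21 for Csf1r, -0.028 to 0.19 for Epcam, -0.16 to 0.14 for Gadd45a, -0.16 to 0.031 for Lats1, -0.12 to 0.035 for Lats2, -0.00078 to 0.34 for Tead2, -1.13 to 0.45 for Wisp2 and -0.16 to 0.15 for Wwtr1. Between the knock-downs they were -0.39 to 0.26 for Crim1, -0.078 to 0.0077 for Lats2, which was 0.0080 with median-of-ratios scaling, -0.0086 to 0.21 for Mitf and -0.043 to 0.23 for Wwc2.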
